A study of Mus musculus with 22 samples.

Results

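The genes described here are 9 myeloid surface receptors of the CD300, PIR, LILR and PILR type, measured in microglia sorted from aged mice. They are Cd300a, Cd300c2, Cd300lb, Cd300ld, Cd300lf, Lilrb4a, Pirb, Pilra and Pilrb1, and all 9 were found among the 54532 genes of the deposited table. The set was chosen by name around Cd300lf, which was itself selected because its level was lower with cannabidiol after lipopolysaccharide in these libraries. The values of that contrast, and those of Cd300lf in every contrast that shares its libraries, are therefore given below as a description, with no test.

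Receptors of this type come in pairs that share related extracellular domains and signal in opposite ways. Inhibitory members carry immunoreceptor tyrosine-based inhibitory motifs (ITIMs) in a long cytoplasmic tail and recruit the phosphatases SHP-1, SHP-2 or SHIP-1. Activating members have a short tail and signal through the adaptors DAP12 (Tyrobp) or the Fc receptor gamma chain (Fcer1g), which engage the kinase Syk. In microglia and other macrophages they read lipids exposed on dying cells, sialylated proteins and MHC class I molecules, and set the threshold of phagocytosis and cytokine release. Cd300a, Cd300lf, Lilrb4a, Pirb and Pilra are of the ITIM type. Cd300c2, Cd300lb, Cd300ld and Pilrb1 are of the activating type.

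Male C57BL/6J mice were injected from 10 weeks of age, for 10 days, with the Gulf War (GW) agents pyridostigmine bromide at 0.7 mg/kg, a cholinesterase inhibitor, and the pyrethroid permethrin at 200 mg/kg, an insecticide, or received vehicle alone, and were aged to 17.5 months. The cannabis compound cannabidiol (CBD) was then given to part of the exposed mice at 30 mg/kg on each of 28 days and every 2 days over 2 further weeks, while the other mice had its vehicle. Lipopolysaccharide (LPS), a bacterial cell wall component that activates macrophages, was given once at 0.33 mg/kg, or PBS in its place, 24 hours before the brains were taken. The 22 libraries formed the groups Ctrl-PBS (n = 4), Ctrl-LPS (n = 4), GW-PBS (n = 4), GW-LPS (n = 3), GW-CBD-PBS (n = 3) and GW-CBD-LPS (n = 4), and replicates are called by their library number, which runs from 2 to 4 in GW-LPS and GW-CBD-PBS. Unexposed mice treated with CBD were not analysed here, so CBD is compared among GW mice alone. Whether each library is 1 animal is not stated in the labels, and p-values here reflect library-to-library spread.

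Library totals ran from 28676930 to 40458326 counts. The summed level of 10 microglia markers was 31935.0 to 44812.0 CPM (library-scaled read counts) in the PBS groups and GW-CBD-LPS, and 19038.7 to 28899.1 CPM in Ctrl-LPS and GW-LPS. Neutrophil markers, 14 in all, were raised in 3 libraries. Their sum was 28206.9 CPM for Ctrl-PBS replicate 3, 3113.5 CPM for Ctrl-LPS replicate 1 and 2056.4 CPM for GW-PBS replicate 1. The other 19 libraries had 429.2 to 1109.4 CPM, most of it Csf3r, which stood at 297 to 750 CPM in every library. Without Csf3r, a choice made after its values were seen, the sum was 27593.6 CPM in Ctrl-PBS replicate 3 and 4.544 to 359.4 CPM in the 19. Monocyte markers moved likewise, with 1906.8 CPM in the highest library and 9.101 to 54.17 CPM in the 19. Border macrophage markers summed to 169 to 272.8 CPM in GW-PBS and 358.2 to 573.1 CPM in GW-LPS, without overlap, and overlapped between Ctrl-PBS (256 to 327.4 CPM) and Ctrl-LPS (243.5 to 421.1 CPM). Dendritic cell markers were lower after LPS without overlap, at 7.325 to 21.68 CPM in Ctrl-LPS against 53.4 to 86.37 CPM in Ctrl-PBS and 25.06 to 43.23 CPM in GW-LPS against 50.48 to 59.86 CPM in GW-PBS. So were B cell markers, at 294.1 to 562.3 CPM against 1015.7 to 1117.3 CPM and 199.1 to 717.8 CPM against 896.6 to 1029.7 CPM. The part of these cells in the LPS changes below was not tested. Ctrl-PBS replicate 3 was the highest library of its group for 7 of the 9 members and the lowest for Cd300a and Cd300c2. GW-LPS replicate 3, which was not among the 3, was the highest of its group for 7 members and the lowest for Pilra and Pilrb1. Calls of members that change without these 3 libraries are given both ways.

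The 5 CD300 members lie within 244 kb of chromosome 11 (chr11:114890041-115133992, GRCm38), Cd300a on the plus strand and the others on the minus strand. Lilrb4a lies at chr10:51490956-51496611 and Pirb at chr7:3711409-3720391. Pilra (chr5:137821952-137836281) and Pilrb1 (chr5:137852147-137858106) are neighbours on the minus strand of chromosome 5. All 9 are protein-coding genes. Of the 100-base stretches of its transcripts, 34.7% for Lilrb4a and 20.7% for Pirb also occur in other genes, mainly Gm49339 (31.0%) and Gm14548 (11.7%), so their counts are less certain than those of the other members, at 3.5% or less.

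Promoter windows of 300 bases, 250 before and 50 after the start, were taken from RefSeq (GRCm38.p6) for 8 of the 9 members, and the Lilrb4a promoter is not shown. Cd300lf had the highest fold of any member after LPS in control and in GW mice. Pilra and Pilrb1 are an inhibitory and activating pair of neighbouring genes. For these reasons, 3 of the 8 windows are printed. Each ends at the start site furthest upstream in RefSeq or GENCODE, reads 5′ to 3′ on the gene's minus strand, and carries matches to the searched motifs in capitals. The regions are chr11:115133993-115134242 for Cd300lf, chr5:137836282-137836528 for Pilra and chr5:137858107-137858299 for Pilrb1.
Cd300lf: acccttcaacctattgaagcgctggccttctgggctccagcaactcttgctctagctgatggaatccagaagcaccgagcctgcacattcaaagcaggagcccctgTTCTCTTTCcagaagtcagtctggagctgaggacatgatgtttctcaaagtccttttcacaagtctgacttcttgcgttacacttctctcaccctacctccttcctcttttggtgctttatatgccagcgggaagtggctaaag
Pilra: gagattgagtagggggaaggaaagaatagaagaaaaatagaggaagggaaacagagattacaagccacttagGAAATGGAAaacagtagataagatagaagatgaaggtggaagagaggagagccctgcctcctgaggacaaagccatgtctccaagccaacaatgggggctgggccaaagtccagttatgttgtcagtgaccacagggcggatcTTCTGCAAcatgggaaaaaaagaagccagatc
Pilrb1: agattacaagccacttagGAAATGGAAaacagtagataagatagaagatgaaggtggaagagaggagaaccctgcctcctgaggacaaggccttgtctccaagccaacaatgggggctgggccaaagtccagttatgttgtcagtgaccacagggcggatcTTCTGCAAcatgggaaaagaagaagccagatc

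The searched motifs were PU.1 (GAGGAAGT), the interferon-stimulated response element ISRE (GAAANNGAA), NF-kB (GGGNNTTCC), C/EBP (TTGCNNAA), AP-1 (TGANTCA) and STAT (TTCNNNGAA), on both strands of each whole window. Positions count from the RefSeq start, which lies 3 bases past the printed end for Pilra, 57 bases past it for Pilrb1 and directly at it for Cd300lf. The Cd300lf window holds an ISRE match at -144, read on the opposite strand, and a PU.1 match that begins at the start itself, just past the printed bases. Pilra holds an ISRE match at -178 and a C/EBP match at -35. Pilrb1 holds the same pair of matches at -232 and -89. Set against each other without gaps, with Pilrb1 moved by 54 bases, the Pilra and Pilrb1 windows were identical at 242 of 246 bases, or 98.4%. Cd300lf and Cd300ld, a member of the same CD300 cluster, placed the same way, were identical at 86 of 297 bases, or 29.0%. Pairs from different chromosomes, each at its best offset, gave similar values. These were 28.7% for Cd300lf and Pilra and 31.8% for Pirb and Pilra. PU.1 matches also stand at -143 in Cd300ld and -120 in Pirb, a C/EBP match at -214 in Cd300a and an ISRE match at 11 bases past the Cd300c2 start, while the Cd300lb window holds none of the 6. Among 32851 RefSeq promoters, 3.2% hold the PU.1 letters, 8.56% the ISRE, 5.82% the NF-kB, 10.8% the C/EBP, 7.81% the AP-1 and 8.3% the STAT letters. A match describes letters only.

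After LPS in control mice, 3 inhibitory members rose, Cd300lf, Pilra and Pirb, and 1 fell, Cd300a. These 3 of 9 compare with 10.8% of the 16554 genes tested that were called higher (edgeR quasi-likelihood test, Benjamini-Hochberg adjusted p under 0.05), and the 1 of 9 with 9.62% called lower. The median log2 fold change was 0.98 over the 9 members and -0.02 over all genes. The same 4 were the members whose Ctrl-LPS and Ctrl-PBS libraries did not overlap, 3 higher against 12.2% of all genes and 1 lower against 10.8%. No activating member was called. With Ctrl-PBS replicate 3 left out, and likewise without the 3 neutrophil-high libraries, 7 members were called, because Lilrb4a, Cd300ld and Pilrb1 were added.

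Cd300lf encodes an ITIM receptor for phosphatidylserine and ceramide, and is also known as the entry receptor of murine norovirus. In Ctrl-PBS it stood at 5.725, 5.27, 48.74 and 5.283 CPM in replicates 1 to 4. In Ctrl-LPS it stood at 517.7, 231.8, 72.84 and 198.5 CPM. Every Ctrl-LPS library was above every Ctrl-PBS library, with the nearest pair being Ctrl-PBS replicate 3 and Ctrl-LPS replicate 3. The log2 fold change was 3.97 ± 0.81 (SE, adjusted p = 0.00145), a 15.7-fold difference, and 5.51 without Ctrl-PBS replicate 3. In GW-PBS it stood at 10.32, 9.541, 10.54 and 9.126 CPM. The 3 GW-LPS libraries held 34.97, 479.6 and 67.31 CPM, so all were above GW-PBS, and replicate 3 was far above the other two. The log2 difference was 4.29 ± 0.84 (SE), and 2.37 without GW-LPS replicate 3. In bulk samples, fewer cells of a type and less RNA per cell cannot be told apart, and this holds for every level given here.

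In CBD-treated GW mice Cd300lf stayed low in every library. GW-CBD-PBS held 4.416, 4.967 and 4.772 CPM, and GW-CBD-LPS held 9.773, 12.47, 6.979 and 7.194 CPM. The LPS libraries lay above the PBS libraries without overlap, with a log2 difference of 0.95 ± 0.82 (SE). All 4 GW-CBD-LPS libraries were below the lowest GW-LPS library, the contrast for which the gene was selected, and the log2 difference there was -4.41 ± 0.85 (SE). It was -2.49 without GW-LPS replicate 3. GW-CBD-LPS overlapped GW-PBS, the exposed group that received neither agent.

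**Figure D1:**
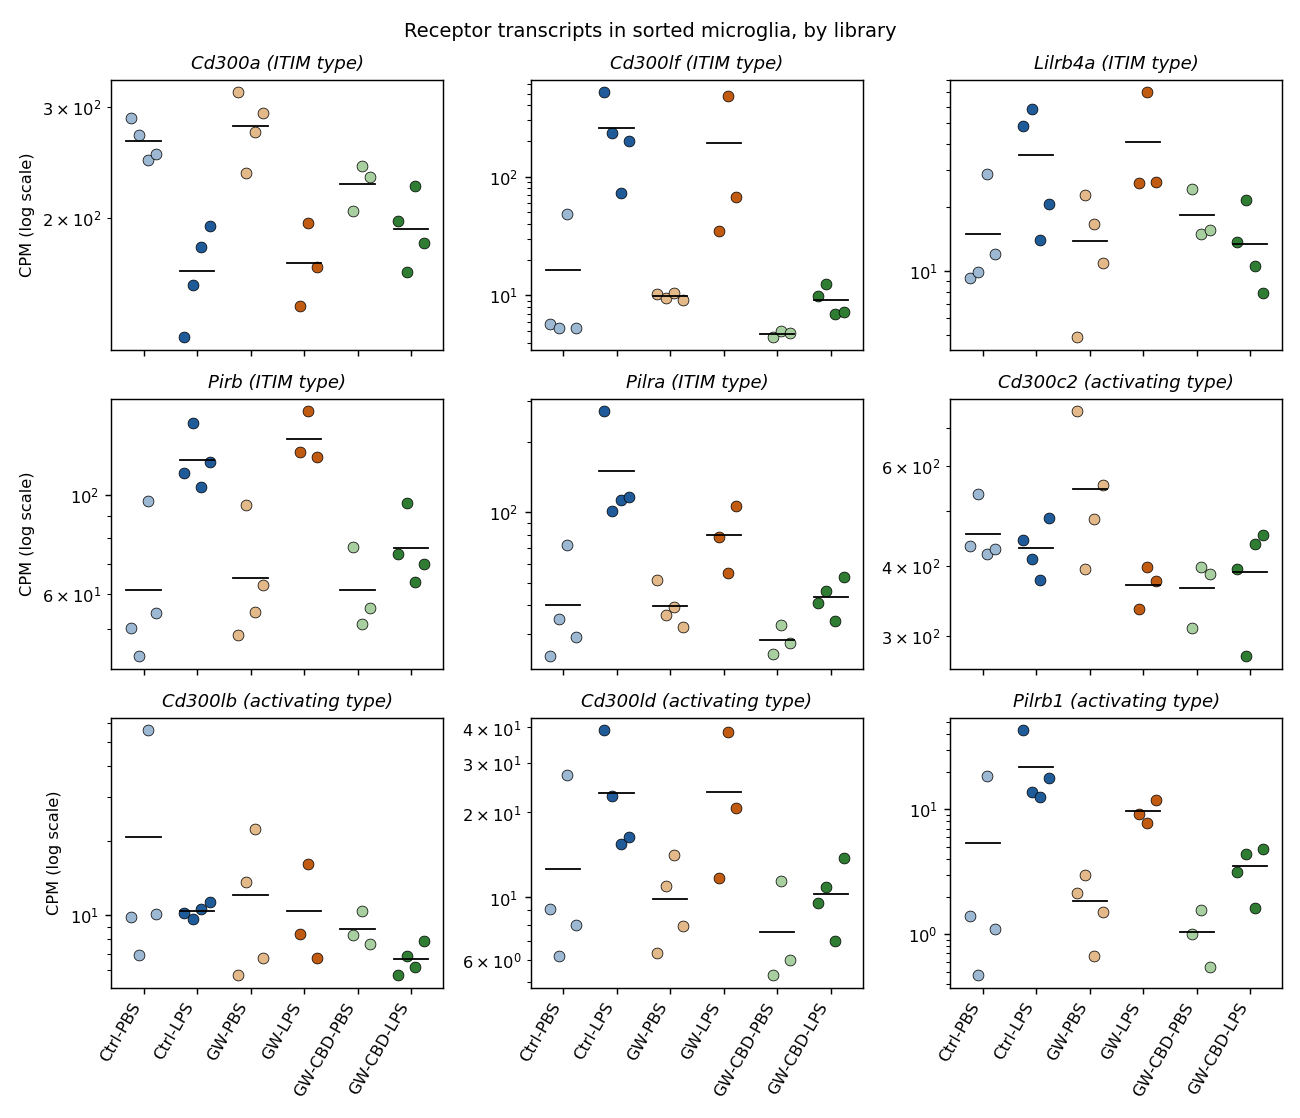
CPM of each of the 9 receptor genes (vertical, log scale) in each library, by group, with points for libraries and bars for group means. Cd300lf lies at 34.97 to 517.7 CPM in Ctrl-LPS and GW-LPS and at 6.979 to 12.47 CPM in GW-CBD-LPS, while Cd300a runs the other way in control mice.

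Cd300lf and the neutrophil markers were set side by side in each library. Ctrl-PBS replicate 3 held 27593.6 CPM of the 13 neutrophil markers other than Csf3r and 48.74 CPM of Cd300lf. GW-LPS replicate 3 held 271.5 CPM of those markers and 479.6 CPM of Cd300lf, and Ctrl-LPS replicate 2 held 59.29 CPM of them and 231.8 CPM of Cd300lf. GW-PBS replicate 1 held 1685.6 CPM of them with 10.32 CPM of Cd300lf. In every group but GW-PBS, however, the library with the most of these markers was also the one with the most Cd300lf. In GW-LPS and GW-CBD-PBS the order of all 3 libraries was the same. The part of neutrophils in these Cd300lf levels was not tested. In GW-CBD-LPS the 13 markers summed to 4.544 to 17.75 CPM, and in GW-LPS to 17.93 to 271.5 CPM.

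**Figure D2:**
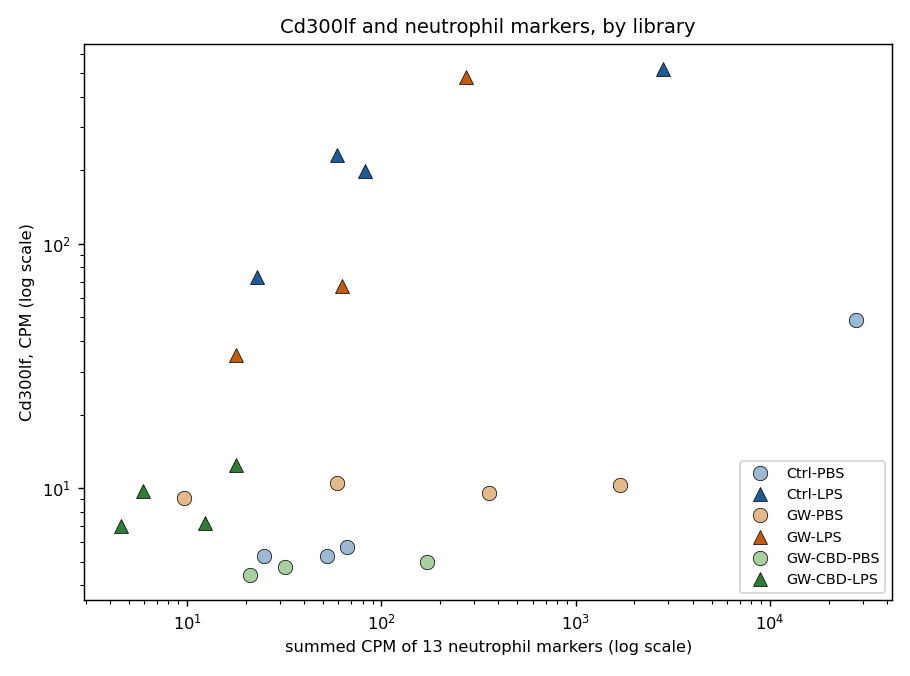
Cd300lf (vertical, CPM, log scale) against the summed CPM of 13 neutrophil markers (horizontal, log scale), with 1 point per library, circles for PBS and triangles for LPS. The library with 27593.6 CPM of the markers lies at 48.74 CPM of Cd300lf, below all Ctrl-LPS libraries and above all other PBS libraries.

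Pilra, the ITIM receptor of the PILR pair, which binds sialylated ligands, rose after LPS in control mice. It stood at 24.18, 34.94, 72.47 and 29.13 CPM in Ctrl-PBS and at 271.3, 101.7, 113.4 and 116.2 CPM in Ctrl-LPS. The groups did not overlap, and the log2 fold change was 1.91 ± 0.33 (SE, adjusted p = 0.000358). GW-PBS held 51.14, 36.31, 39.32 and 32.42 CPM and GW-LPS held 78.75, 54.72 and 106.3 CPM. These did not overlap either, but the log2 fold change of 1.01 ± 0.34 missed the threshold (adjusted p = 0.0692). It passed without the 3 neutrophil-high libraries, at 1.13 (adjusted p = 0.00275). In CBD-treated mice Pilra stood at 24.75, 32.82 and 27.62 CPM with PBS and at 41.07, 46.16, 34.13 and 52.98 CPM with LPS, again apart, at 0.62 ± 0.35 (adjusted p = 0.544).

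Pilrb1, the DAP12-coupled activating partner, had the lowest level per exon length in the 3 PBS groups. Ctrl-PBS held 1.401, 0.4672, 18.4 and 1.09 CPM, and Ctrl-LPS held 43.31, 13.71, 12.52 and 17.71 CPM. Only Ctrl-PBS replicate 3, the library richest in neutrophil markers, overlapped Ctrl-LPS. The log2 fold change was 2.03 ± 0.78 (adjusted p = 0.0703), and 4.42 without that library (adjusted p = 3.45e-05). GW-PBS held 2.13, 2.994, 0.6712 and 1.512 CPM, and GW-LPS held 9.119, 7.837 and 11.89 CPM. These groups were apart, with a log2 fold change of 2.40 ± 0.84 (adjusted p = 0.0762), which passed without the 3 libraries (2.46, adjusted p = 0.00502). With CBD, the PBS libraries held 1.003, 1.548 and 0.5494 CPM and the LPS libraries 3.124, 4.418, 1.61 and 4.796 CPM, apart by a narrow margin (1.74 ± 0.90, adjusted p = 0.491). Across the 22 libraries the Spearman rho of Pilra and Pilrb1 was 0.89, given as a description since the libraries share groups and depth.

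Pirb, the inhibitory receptor for MHC class I, rose after LPS in both untreated arms. It stood at 50.18, 43.27, 96.87 and 54.17 CPM in Ctrl-PBS and at 112.3, 145.6, 104.6 and 118.8 CPM in Ctrl-LPS, with no overlap. The log2 fold change was 0.98 ± 0.23 (SE, adjusted p = 0.00517). GW-PBS held 48.41, 95, 54.54 and 62.79 CPM and GW-LPS held 125.1, 155.1 and 121.8 CPM, with no overlap and a log2 fold change of 1.04 ± 0.25 (adjusted p = 0.0119). Without GW-LPS replicate 3 this was 0.92 and lost the call (adjusted p = 0.0598). With CBD, Pirb stood at 76.29, 51.17 and 55.78 CPM after PBS and at 73.51, 96.34, 63.6 and 69.95 CPM after LPS, and the groups overlapped.

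Cd300a, an inhibitory receptor for phosphatidylserine and phosphatidylethanolamine, fell after LPS in both untreated arms. It stood at 288.1, 271.5, 247.1 and 252.6 CPM in Ctrl-PBS and at 129.6, 156.7, 179.9 and 194.2 CPM in Ctrl-LPS. All Ctrl-LPS libraries were below all Ctrl-PBS libraries, and the log2 fold change was -0.68 ± 0.13 (SE, adjusted p = 0.00115). GW-PBS held 317, 235.8, 273.6 and 293.3 CPM and GW-LPS held 145.4, 196.6 and 167.8 CPM, again apart, at -0.72 ± 0.15 (adjusted p = 0.00403). With CBD the levels were 205.3, 242 and 232.5 CPM after PBS and 198.3, 164.6, 224.9 and 182.7 CPM after LPS, which overlapped (-0.23 ± 0.14, adjusted p = 0.59). The microglia marker sum was also lower in Ctrl-LPS and GW-LPS, and its part in the fall was not tested. Across the 22 libraries the Spearman rho of Cd300a and Pirb was -0.81, given as a description.

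Lilrb4a (gp49B), an ITIM receptor of myeloid cells, stood at 9.257, 9.942, 28.87 and 12.05 CPM in Ctrl-PBS and at 48.39, 58.33, 14.02 and 20.75 CPM in Ctrl-LPS. Ctrl-PBS replicate 3 overlapped Ctrl-LPS, and the log2 fold change of 1.23 ± 0.51 missed the threshold (adjusted p = 0.0898). It was 1.72 without that library (adjusted p = 0.0256). GW-PBS held 4.859, 22.96, 16.78 and 10.89 CPM and GW-LPS held 26.18, 70.3 and 26.38 CPM, all higher, at 1.56 ± 0.54 (adjusted p = 0.0706). This was 0.91 without GW-LPS replicate 3 (adjusted p = 0.389) and 1.92 without GW-PBS replicate 2, where it was called (adjusted p = 0.034). With close relatives of Lilrb4a summed it was 1.01 (adjusted p = 0.248). That sum did not include Gm49339, the main gene with which Lilrb4a shares sequence. With CBD it stood at 24.42, 15.05 and 15.62 CPM after PBS and at 13.73, 21.65, 10.62 and 7.848 CPM after LPS, with overlap. The log2 fold change of -0.45 ± 0.54 there had an adjusted p of 0.828.

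Cd300ld, an activating receptor coupled to the Fc receptor gamma chain, ranged from 6.204 to 27.22 CPM in Ctrl-PBS and from 15.48 to 39.21 CPM in Ctrl-LPS. Its log2 fold change was 0.90 ± 0.44 (adjusted p = 0.163), 1.56 without Ctrl-PBS replicate 3 (adjusted p = 0.0107) and 0.53 without Ctrl-LPS replicate 1 (adjusted p = 0.475). In GW mice it ranged from 6.359 to 14.15 CPM with PBS and from 11.7 to 38.67 CPM with LPS (1.26 ± 0.47, adjusted p = 0.0991), which was 0.71 without GW-LPS replicate 3 (adjusted p = 0.462). Cd300lb, a DAP12-coupled receptor, stood at 56.15 CPM in Ctrl-PBS replicate 3 and at 5.729 to 22.32 CPM in the other 21 libraries. Its log2 fold change in control mice was -0.99 ± 0.51 (adjusted p = 0.183), and 0.18 without that library. Cd300c2, an activating receptor and the most abundant member, ranged from 276.1 to 751.6 CPM over all libraries. Its log2 fold change after LPS was -0.08 ± 0.17 in control mice (adjusted p = 0.782) and -0.57 ± 0.19 in GW mice (adjusted p = 0.0604).

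**Figure D3:**
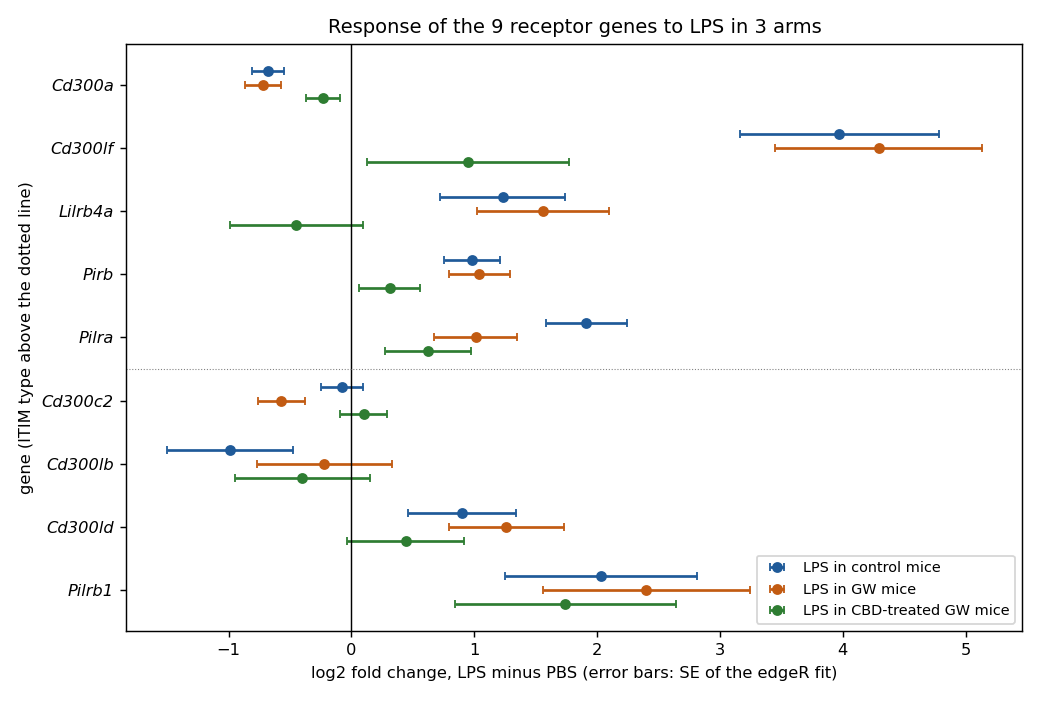
Log2 fold change after LPS (horizontal) of each member in control, GW and CBD-treated GW mice, with the standard error of the edgeR fit as bars. Cd300a lies at -0.68 and -0.72 without CBD and at -0.23 with it, and Pilrb1 lies above 0 in all 3 arms.

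Among the 8 members other than Cd300lf, 1 was called higher after LPS in GW mice, Pirb, and 1 lower, Cd300a, against 4.45% and 5.08% of all genes. Counting Cd300lf, 5 members were higher without overlap against 9.22% of all genes, and 1 was lower against 10.4%. The call count was 5 with DESeq2 and with limma voom, 4 without the 3 neutrophil-high libraries, 4 in a fit of the compared groups alone, 4 without GW-PBS replicate 2 and 1 without GW-LPS replicate 3. In CBD-treated GW mice 0 of the 8 were called with edgeR after LPS, 0 at an unadjusted p under 0.05, 0 with DESeq2 and 1 with limma voom (Pilrb1), where 0.417% of all genes were called. Without overlap, 3 members were higher there, Cd300lf, Pilra and Pilrb1, against 8.37% of all genes. This count and the calls above do not test whether the arms differ.

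The difference itself was tested for exposure. The interaction of exposure and LPS gave 0 calls among the 8 members (edgeR; 0 at an unadjusted p under 0.05) and 0% of all genes. The interaction of CBD and LPS shares the libraries used for selection and is given as a description. It was -3.34 ± 1.12 (log2, SE) for Cd300lf, and -1.44 without GW-LPS replicate 3. It was -2.01 ± 0.76 for Lilrb4a, -0.73 ± 0.35 for Pirb and -0.65 ± 1.20 for Pilrb1. Lilrb4a stood at 70.3 CPM in GW-LPS replicate 3 and at 26.18 and 26.38 CPM in replicates 2 and 4. Its interaction without replicate 3 is not given here. For Pilra it was -0.39 ± 0.49, with -0.62 without GW-LPS replicate 3 and -0.14 without GW-LPS replicate 4. Cd300ld stood at -0.82 ± 0.67 and Cd300lb at -0.18 ± 0.78. Cd300a and Cd300c2 went the other way, at 0.49 ± 0.21 and 0.66 ± 0.26. For Cd300lf the interaction of exposure and LPS was 0.32 ± 1.06, but -1.24 without Ctrl-PBS replicate 3 and -1.55 without GW-LPS replicate 3.

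The contrast of GW-CBD-LPS with GW-LPS is the one on which Cd300lf was selected. After LPS, 5 members stood lower with CBD in every library, Cd300lf, Lilrb4a, Pirb, Pilra and Pilrb1, where 6.32% of all genes did, and nothing is read from this count. Of all genes, 1.24% were called lower there. The log2 differences were -1.60 ± 0.54 for Lilrb4a, -1.46 ± 0.82 for Pilrb1, -0.88 ± 0.34 for Pilra and -0.82 ± 0.25 for Pirb. Without GW-LPS replicate 3, Lilrb4a stood at -0.96, Cd300ld at -0.65 and Cd300lb at -0.18, while Pilra stood at -1.08 and Pilrb1 at -1.59. With it, Cd300ld stood at -1.20 ± 0.47 and Cd300lb at -0.64 ± 0.55, both with overlapping groups. Cd300a and Cd300c2, the most abundant members, stood at 0.18 ± 0.15 and 0.08 ± 0.19, and at 0.31 and 0.15 without that library.

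Without LPS, none of the 9 members differed by the edgeR test between exposed and control mice or between CBD-treated and vehicle-treated GW mice. The exposure contrast gave 0 calls, 0 at an unadjusted p under 0.05, and 0% of all genes, with log2 fold changes from -1.55 to 0.27. Cd300lf stood at -0.72 ± 0.73 there, and at 0.85 without Ctrl-PBS replicate 3, the library that holds 48.74 CPM. The CBD contrast gave 0 calls, 2 at an unadjusted p under 0.05 (Cd300a at -0.30 and Cd300c2 at -0.58), and 0% of all genes. Cd300lf was the 1 member lower without overlap with CBD, against 5% of all genes, at -1.07 ± 0.82 (adjusted p = 0.64). After LPS, exposure gave 0 calls among the 8 other members, 1 at an unadjusted p under 0.05 (Pilra at -0.91), and 0% of all genes. Pilrb1 stood lower in GW-LPS than in Ctrl-LPS without overlap, at -1.18 ± 0.83 (adjusted p = 0.499). DESeq2 and limma voom also made 0 calls among the members in these 3 contrasts.

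To compare genes roughly, CPM were divided by the length of all annotated GENCODE exons of a gene together. Which transcripts of a gene were present was not tested, and the scale depends on it. On this scale of CPM per kb of exon, Cd300c2 and Cd300a led in every PBS group. In Ctrl-PBS they stood at 356.2 ± 43.03 and 55.89 ± 3.954 (SD, n = 4), with no overlap between them or with the next member. Pirb at 13.67 ± 5.425 followed, and from it on each member overlapped the next, down to Pilrb1 at 2.728 ± 4.453. In Ctrl-LPS, Cd300lf came second at 49.56 ± 36.49 and overlapped Pilra (48.76 ± 26.11), which in turn overlapped Cd300a (34.85 ± 5.97). Without Ctrl-LPS replicate 1 it averaged 32.57 and ranked 4. In GW-LPS, Cd300lf was also second at 37.67 ± 48.14 (n = 3), overlapping Cd300a at 35.86 ± 5.408. This rank rests on GW-LPS replicate 3, without which Cd300lf averaged 9.932 and ranked 5. In GW-CBD-LPS, Cd300lf at 1.768 ± 0.5011 (n = 4) and Pilrb1 at 1.782 ± 0.7366 were the lowest and overlapped, and Cd300c2 and Cd300a again led, at 306.1 ± 62.86 and 40.65 ± 5.396.

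The summed level of the 5 ITIM-type members was 88.6 ± 15.88 CPM per kb in Ctrl-PBS and 166.8 ± 58.14 in Ctrl-LPS (SD, n = 4). It was 91.11 ± 4.182 in GW-PBS, 137.2 ± 55.62 in GW-LPS, 75.11 ± 1.636 in GW-CBD-PBS and 76.07 ± 1.448 in GW-CBD-LPS. These sums were described and not tested. The 4 activating-type members summed to 370.8 ± 37.8 CPM per kb in Ctrl-PBS and 360.3 ± 41.24 in Ctrl-LPS, most of it Cd300c2. They summed to 437.7 ± 116.2 in GW-PBS, 307.1 ± 30.9 in GW-LPS, 292.6 ± 38.47 in GW-CBD-PBS and 314 ± 62.68 in GW-CBD-LPS. Cd300a and Cd300c2 made up 89.8% ± 7.018 of the sum over 9 members in Ctrl-PBS, 71.42% ± 8.907 in Ctrl-LPS, 74.16% ± 7.231 in GW-LPS and 88.46% ± 3.872 in GW-CBD-LPS. The share of Cd300lf was 8.796% ± 5.213 in Ctrl-LPS and 0.4799% ± 0.2269 in GW-CBD-LPS, with 7.42% ± 8.629 in GW-LPS, or 2.451% without its replicate 3.

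**Figure D4:**
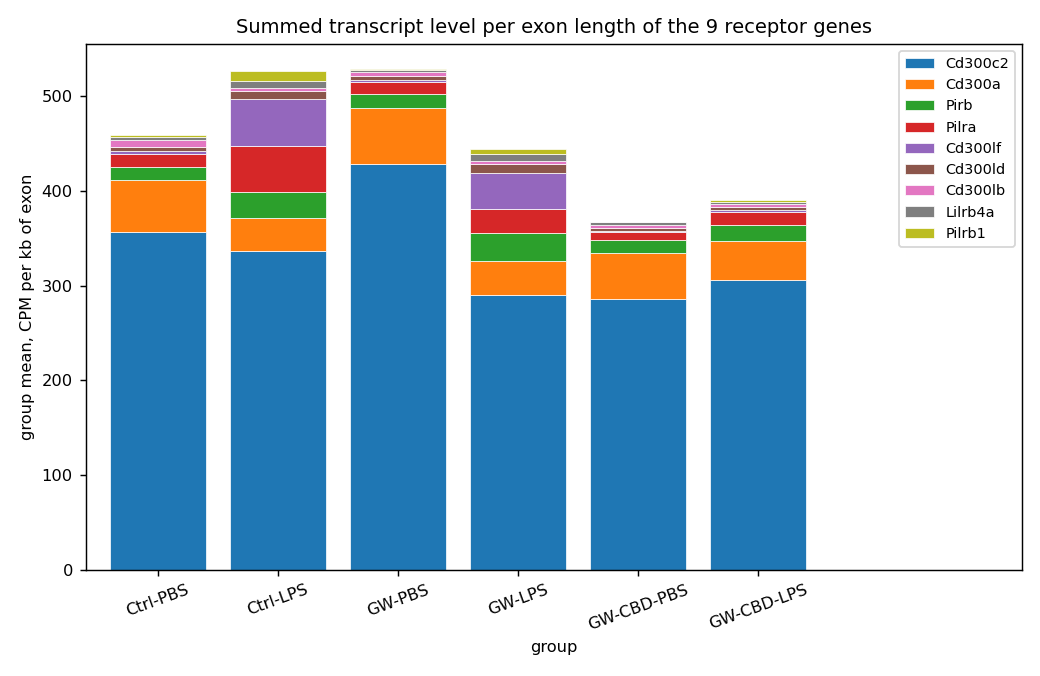
Group means of the 9 members in CPM per kb of exon, stacked by gene for each of the 6 groups, with no error bars. Cd300c2 forms the largest layer in each group, and the Cd300lf layer is wide in Ctrl-LPS (49.56) and in GW-LPS (37.67), where the libraries run from 6.792 to 93.14 and it is 9.932 without replicate 3.

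The adaptors that carry the activating signal missed the threshold after LPS in control mice, with log2 fold changes of 0.09 for Tyrobp (adjusted p = 0.812), 0.64 for Fcer1g (adjusted p = 0.0698) and 0.45 for Hcst (adjusted p = 0.278). Tyrobp stood at 1548.1 ± 223.5 CPM in Ctrl-PBS and 1653.5 ± 410.1 CPM in Ctrl-LPS. Of 8 genes that carry the inhibitory signal, Dok3 (log2 fold change 0.92, adjusted p = 0.000383) and Dok2 (1.24, adjusted p = 0.0201), both adaptors of the Dok family, rose and Dok1 fell (-0.47, adjusted p = 0.00708) after LPS in control mice. Ptpn6, which encodes SHP-1, stood at -0.11 (adjusted p = 0.468), Ptpn11 (SHP-2) at 0.35 (adjusted p = 0.0749) and Inpp5d (SHIP-1) at -0.22 (adjusted p = 0.543). Without Ctrl-PBS replicate 1 only 1 of the 8 was higher in control mice. In GW mice Dok3 rose (0.89, adjusted p = 0.00268) and Dok1 fell (-0.43, adjusted p = 0.04), a call that was lost without GW-PBS replicate 1 and without the 3 neutrophil-high libraries. Dok3 stood at 93.17 to 106.3 CPM in GW-CBD-LPS and at 145.2 to 223.5 CPM in GW-LPS.

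Other receptors of both kinds and their kinases gave calls in either direction after LPS in control mice, where 10.8% of all genes were called higher and 9.62% lower. Of 17 further ITIM receptors, 4 were higher and 9 lower, with Fcgr2b (1.04) and Siglece (1.02) among the higher. Of 17 activating receptors tested, 3 were higher and 2 lower, with Fcgr4 at 3.44 and Siglech at -1.25, and 8 were higher without Ctrl-PBS replicate 3 and without the 3 libraries. Of 14 kinases and signalling partners, 3 were higher and 2 lower, with Blnk at -1.07, and 2 higher and 1 lower without Ctrl-PBS replicate 1 or without the 3 neutrophil-high libraries. Of 13 genes for ligands, 3 were higher, among them Apoe (1.08) and H2-D1 (0.63), and 1 was higher and 1 lower without Ctrl-LPS replicate 1 or the 3 libraries. In GW mice these lists gave 2 higher and 5 lower of the ITIM receptors, 2 and 3 of the activating receptors, 0 and 2 of the kinases, and 0 and 2 of the ligands, where 4.45% of all genes were called higher and 5.08% lower. Without the 3 libraries, 1 kinase was lower. Single libraries moved these GW counts, to 4 kinases higher without GW-PBS replicate 2, to 3 ITIM receptors lower without GW-PBS replicate 3, and to 1 ITIM receptor higher without GW-LPS replicate 3. Without GW-PBS replicate 2 the ligands had 3 lower and the activating receptors 1 higher. Of 12 close relatives of the members in the table, 9 passed the filter on low counts, and the smallest adjusted p among them after LPS in control mice was 0.0986 (Cd300c, log2 fold change -1.79). Without the 3 libraries, 1 relative was called higher there. Pilrb2, next to Pilrb1, stood at 1.23 ± 0.79 after LPS in control mice (adjusted p = 0.295), with 26.33 CPM in its highest Ctrl-PBS library and 0.5711 CPM in its lowest.

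The 5 genes outside the set that followed Cd300lf most closely over the 22 libraries, by Spearman rho of log2 CPM, were Il18bp (0.95), C5ar1 (0.94), Cyp4f18 (0.94), Hcar2 (0.93) and Slfn2 (0.93). They were picked for likeness to Cd300lf, with the libraries on which it was selected among the 22. Their group means partly follow from that pick and are given as a description. C5ar1, the complement C5a receptor, averaged 377.4 CPM in Ctrl-PBS, 2068.8 CPM in Ctrl-LPS, 1602.5 CPM in GW-LPS and 453 CPM in GW-CBD-LPS. Hcar2, the nicotinic acid receptor, averaged 61.06, 619.5, 511.4 and 121.6 CPM in those groups. Within the set, Cd300lf was nearest to Pilra (0.90), then to Cd300ld and Pilrb1 (0.85 each).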

How the data were processed

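Poly(A) RNA of microglia sorted by flow cytometry was sequenced in 22 libraries. The deposited table holds raw counts, reads per gene after alignment to GRCm38 (mm10), per the labels and per the submitters' processing notes for the build. Which aligner, counter, strand option and annotation were used is not given in the sources used here. Of the identifiers, 54409 of 54532 were found in GENCODE M21, and 27 symbols that had become dates were restored. Groups came from the library labels.

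The test was the quasi-likelihood test of edgeR 4.0.16 in R 4.3.3, with TMM factors and filterByExpr, all 22 libraries in 1 fit with a mean per group, on 16554 genes. A call is a two-sided Benjamini-Hochberg adjusted p under 0.05 over all genes tested, and every adjusted p with no other tool named is from this test. CPM use TMM factors, except the levels of cell type markers, which use library totals alone. Alternatives were RLE size factors, no filter, DESeq2 1.42.0, limma 3.58.1 voom with quality weights, and the compared groups alone. Others were the replicate block, close relatives summed, each library left out, and the 3 neutrophil-high libraries left out. Wherever voom is named, these weights let outlying libraries count less. The summed relatives did not include Gm49339 or Gm14548. The script was tested on simulated data. Pairs of libraries within a group differed by a chi-square of 12.5 to 260.0 per degree of freedom, so none is another library sequenced again. This cannot show whether they come from different animals. The lowest count of a member in a library was 18, for Pilrb1.

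The members and lists were chosen with earlier results of these data known. Named genes are the 9 members, the adaptors, the genes of the inhibitory signal, the relatives past the filter and, of the other lists, the 2 called genes with the smallest p, and not all are printed. The comparison of promoter windows was chosen after the sequences were seen, and levels per length and the Pilra interaction with libraries left out after the data were seen. Figures were drawn with matplotlib 3.10.9.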

Additional observations from a re-analysis of the deposited data

Results flagged for a closer look

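In groups of 4 libraries, a library was singled out where its gap to the nearest other was wide against the range of the group (Dixon's criterion), which chance gives in about 1 in 20 groups. It singled out 8 of 36 combinations of a member and a group. Ctrl-PBS replicate 3 stood high for 5 members, at 56.15 CPM for Cd300lb, 27.22 CPM for Cd300ld, 48.74 CPM for Cd300lf, 28.87 CPM for Lilrb4a and 18.4 CPM for Pilrb1. It is the library with 28206.9 CPM of neutrophil markers, and their part in these levels was not tested. Ctrl-LPS replicate 1, with 3113.5 CPM of neutrophil markers, stood high at 271.3 CPM for Pilra and 43.31 CPM for Pilrb1. Ctrl-PBS replicate 2 stood high at 535.9 CPM for Cd300c2.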

How the results depend on the processing

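After LPS in control mice 4 members were called, 7 with limma voom, 7 without the 3 neutrophil-high libraries, and 4 to 7 with 1 library left out. After LPS in GW mice 2 were called, 5 with DESeq2, 5 with limma voom, 4 in the compared groups alone, 4 without the 3 libraries, and 1 to 4 with 1 library left out. With CBD, voom called 1 after LPS. The description of Cd300lf with CBD after LPS (-4.41) was -2.76 with voom and -4.88 to -2.49 with 1 library left out, and its interaction of CBD and LPS (-3.34) was -1.67 and -3.84 to -1.44. Signs turned only for uncalled folds. With 1 library left out, Cd300c2 after LPS ran from -0.15 to 0.01 in control mice and from -0.03 to 0.22 in CBD-treated mice. Cd300lb ran from -1.28 to 0.18 in control mice (0.21 without the 3 libraries), from -0.69 to 0.25 in GW mice, and from -0.68 to 0.02 for CBD without LPS. For CBD without LPS, Pirb ran from -0.26 to 0.14, with 0.02 without GW-CBD-PBS replicate 3, and Lilrb4a was -0.01 with close relatives summed. Cd300lf for exposure without LPS ran from -1.01 to 0.85, with 0.50 in voom and 0.84 without the 3 libraries. The causes were not tested. Deviations of 51 same-numbered pairs of libraries correlated at a median of 0.0141, with 11 over 0.1. For 150 other-numbered pairs the median was 0.00159, with 29 over 0.1. These values show no pairing by library number but cannot exclude one. With the replicate block, 4 members were called in control mice and 2 in GW mice. Leaving out a library leaves few per group, and no group holds over 4.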
